A study of Mus musculus with 39 samples.

Results

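Rab GTPases are small GTP-binding proteins that mark the membranes of a cell and direct vesicles between them. The set described here holds every gene symbol made of Rab, a number and at most 1 letter. It has 59 genes of the 24689 symbols in the 4 tables of the study. The rule reads symbols and no measured value, but the set was chosen with earlier results of these data known. All 59 were listed in each of the 3 tables of dendritic cells (DC), and 33 in the T cell table, which lists 7830 genes. After a filter on low counts, 39 members were tested in the DC time course, 42 in the DC costimulation experiment, 40 in the DC experiment with 5 replicates and 25 in T cells. In all, 46 members were tested in at least 1 experiment and 13 in none.

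Each Rab cycles between a GTP-bound form on a membrane and a GDP-bound form held in the cytosol. Guanine nucleotide exchange factors (GEFs) switch a Rab on, GTPase-activating proteins (GAPs) switch it off, carrier proteins extract it from the membrane, and effectors bind the active form. In DC, endosomal and secretory Rabs take part in antigen uptake, phagosome maturation, recycling of MHC molecules and delivery of cytokines and surface proteins.

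The study asked how lymph node DC respond to T cells that recognise the antigen they present. RNA was sequenced in bulk from 39 libraries of cells sorted by flow cytometry from popliteal and inguinal lymph nodes, after enrichment of DC by negative selection, and the sorting gates are not given per sample. All mice were C57BL/6, 8 to 12 weeks old, and immunized mice received nanoparticles under the skin of the hock. The particles held the adjuvant CpG, which activates Toll-like receptor 9, and a protein, either ovalbumin (OVA), the antigen of the transgenic T cell receptors OT-I and OT-II, or bovine serum albumin (BSA), which those receptors do not recognise. The time course has 5 groups of 2 wild-type DC libraries: non-immunized, CpG particles without protein at 12 h and at 24 h, and OVA with CpG at 12 h and at 24 h. The costimulation experiment has 4 groups of 2 DC libraries at 12 h: wild-type mice with OVA, with OVA and OT cells or with BSA and OT cells, and Cd80/86 -/- mice, which lack the costimulatory ligands of CD28, with OVA and OT cells. Its labels do not name CpG, which the series text gives as a content of the particles together with a rhodamine dye. The experiment with 5 replicates has 3 groups of 5 wild-type DC libraries: non-immunized, BSA with CpG at 20 h and OVA with CpG at 20 h. The T cell experiment has 3 libraries of CD4+ OT-II T cells with BSA and CpG and 3 with OVA and CpG, both at 20 h. The series text speaks of mice given OT-I and OT-II T cells, but the labels do not state this transfer per sample for the time course or for the experiment with 5 replicates, and they do not name which OT cells the costimulation groups received. Nor do they state that each replicate is its own animal or pool, and a p-value here therefore reflects no more than the spread between libraries, which may be technical. In bulk RNA, fewer cells of a type and less RNA per cell cannot be told apart.

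Counts per library ranged from 612017 to 1329203 in the time course, 628404 to 1621784 in the costimulation experiment and 367209 to 2052904 in the experiment with 5 replicates. In the latter, non-immunized replicate 3 was the shallowest library and OVA replicate 3 the deepest, and both stood apart in several member levels, so counts are also given without them. Whole reads recovered from the T cell table gave 155088 to 1316341 per library. The T cell experiment had every OVA library deeper than every BSA library. The DC markers H2-Aa and Cd74 were present in every DC library, but also in every T cell library, and the DC libraries also held RNA of other cells. In the time course, 18 of 21 T cell markers were listed, and their summed level was 6005 and 6171 CPM (counts scaled to an equal total in each library) in the non-immunized libraries against 1856 to 4316 in the immunized ones. In the experiment with 5 replicates the same sum was 140 to 498. The 8 markers of conventional DC summed to 3015 to 4892 CPM in the non-immunized libraries of the time course and 4134 to 14557 in its immunized ones. With 5 replicates that sum was 20114 to 43210. All 12 neutrophil markers were listed, and they summed to 180 to 228 CPM in the non-immunized libraries of the time course and 14303 to 18162 with CpG at 12 h. None of the markers of these lists was at 0 in every library. In the time course, 11 B cell markers summed to 517 to 527 CPM without immunization and 519 to 2535 with it. Of 9 tested, 5 rose with CpG at 12 h, and 8 rose and 1 fell at 24 h. With OVA 5 rose at 12 h and 2 at 24 h. The 7 markers of plasmacytoid DC summed to 797 to 928 CPM in non-immunized and 1183 to 2203 in immunized libraries. The part of these cells in the member values was not tested. Cd80 counts were 4.23 and 12.4 CPM in the Cd80/86 -/- libraries and 11.4 and 10.0 CPM in their wild-type controls, and Cd86 counts were 37.4 and 48.5 CPM against 81.5 and 82.6. Reads outside a deleted part of a gene check nothing about the knockout, and the part deleted is not given in the labels.

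Rab genes were more often higher than lower in DC of immunized mice compared with non-immunized mice. The largest rises were those of Rab30, Rab44, Rab7b and Rab9. Of 39 members tested in the time course, 10 rose and 2 fell with CpG at 12 h, where 16.3% of all 9428 genes tested were called (11.6% higher and 4.65% lower). A call is an adjusted p under 0.05 in the quasi-likelihood test of edgeR with Benjamini-Hochberg adjustment over all genes tested, as in every DC comparison. With CpG at 24 h 5 rose and 1 fell, against 11% of all genes called (7.96% higher and 3.05% lower). With OVA at 12 h 7 rose and 1 fell, against 13.6% (9.56% and 4.04%). With OVA at 24 h 9 rose and 1 fell, against 14.1% (10.2% and 3.92%). In the experiment with 5 replicates, 11 of 40 members rose and 2 fell with OVA at 20 h, against 15.6% of 9159 genes (9.59% and 6.04%), and 4 rose and none fell with BSA, against 5.45% (3.68% and 1.77%). The plot of shares called sets these counts beside all genes.

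**Figure D1:**
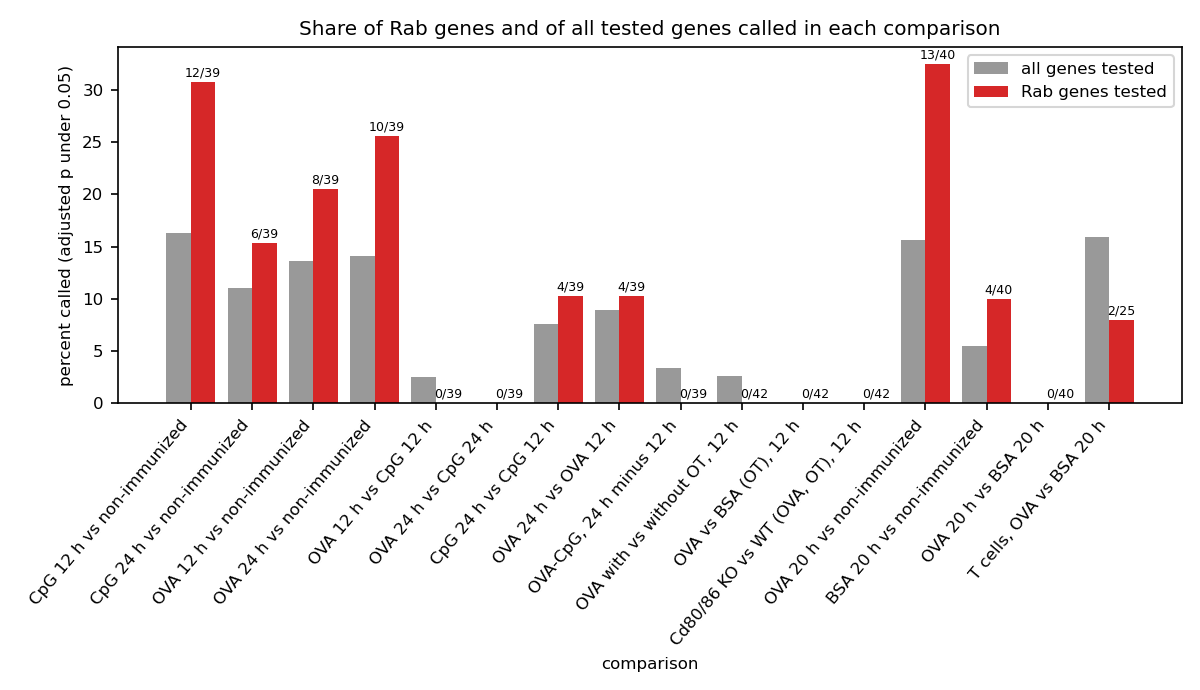
Percent of genes called at an adjusted p under 0.05 in each of the 16 comparisons, for all genes tested (grey bars) and for the Rab genes tested (red bars, with the number called over the number tested). The Rab share is above that of all genes in the 6 comparisons with non-immunized DC and in both comparisons of 24 h with 12 h. It is below that of all genes in T cells and wherever other genes but no Rab gene were called.

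The 4 time course comparisons share the same 2 non-immunized libraries and the 2 at 20 h share the same 5, so they are not independent of each other. The median log2 change of the members was 0.24 with CpG at 12 h, 0.17 with CpG at 24 h, 0.30 with OVA at 12 h and 0.27 with OVA at 24 h, where that of all genes lay between -0.03 and 0.00. It was 0.33 with OVA and 0.20 with BSA at 20 h, and -0.01 for all genes in both. These values depend on the scaling. Log2 changes here use TMM factors, whereas the CPM given are per library total. Scaling by library totals alone, an alternative added after seeing the data, lowered the median of all genes by 0.22, 0.20, 0.23 and 0.21 in the 4 time course comparisons and by 0.16 and 0.15 at 20 h. The member medians were then 0.03, -0.03, 0.07, 0.05, 0.18 and 0.05, in each case still above the median of all genes on that scale, which lay between -0.26 and -0.16. On that scale 7 members were called higher and 2 lower with CpG at 12 h, 2 and 2 with CpG at 24 h, 4 and 1 with OVA at 12 h, 8 and 3 with OVA at 24 h, 7 and 3 with OVA at 20 h, and 0 and 1 with BSA. The direction of a member is therefore given relative to the other genes of the same libraries.

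**Figure D2:**
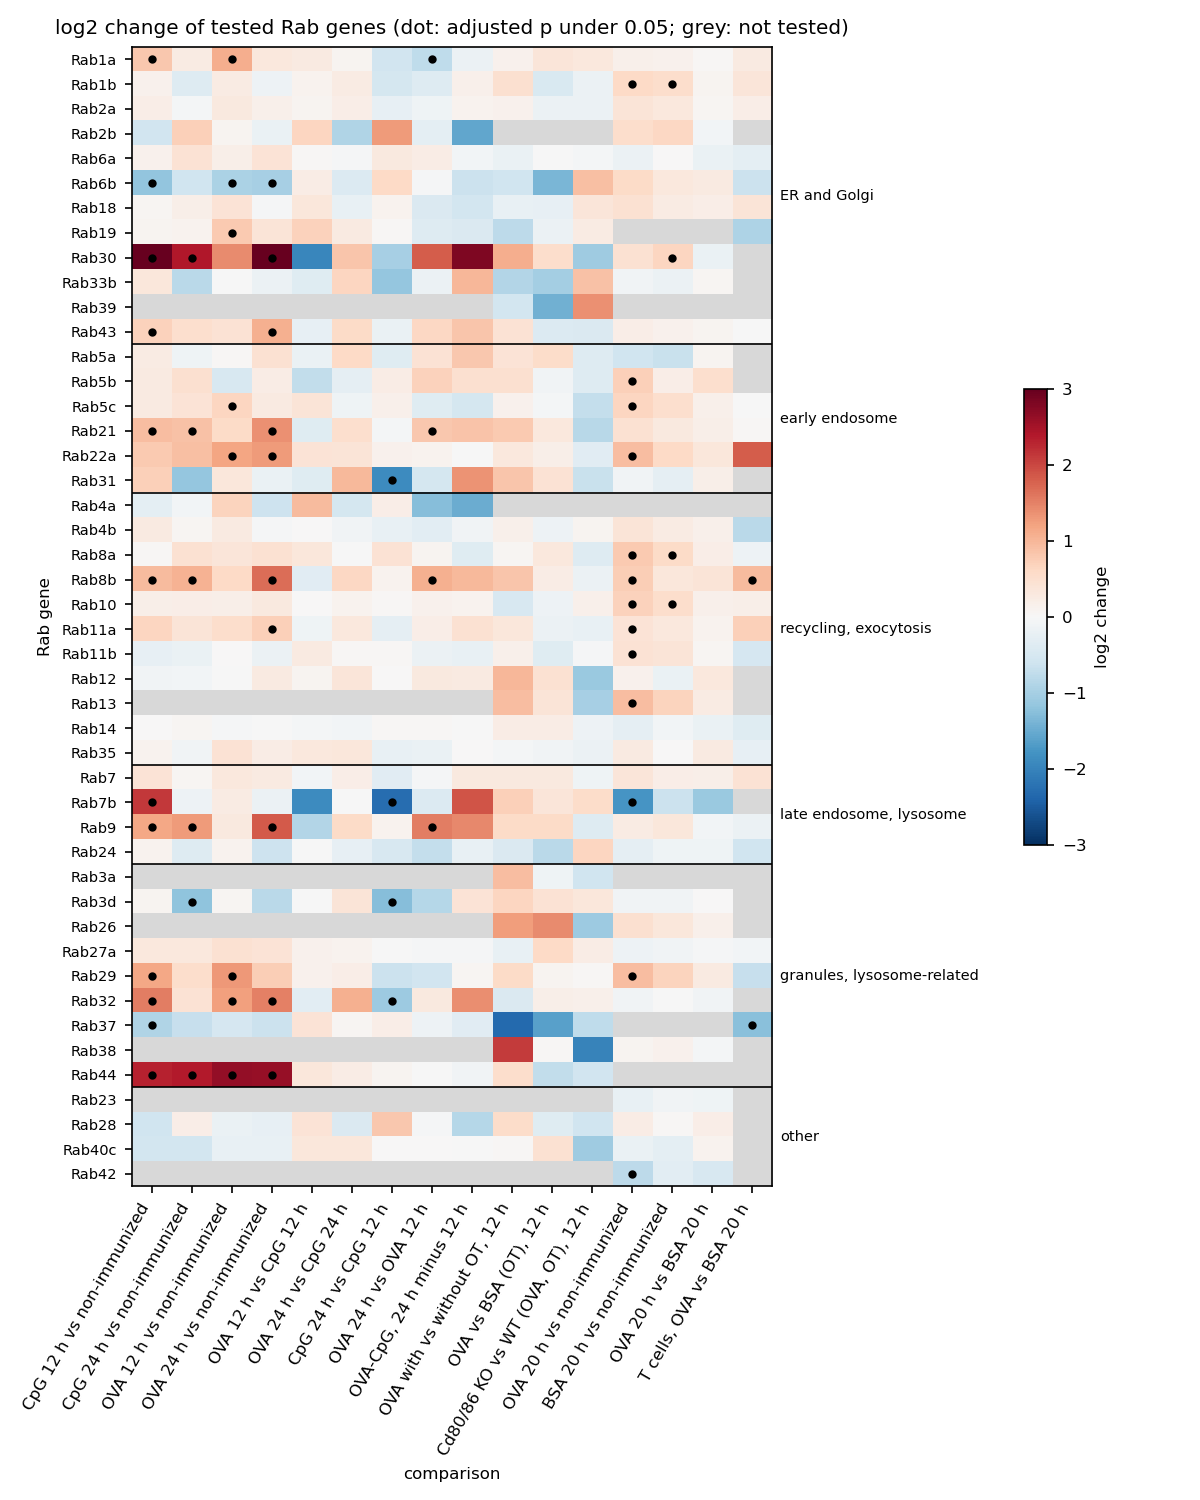
Log2 change (colour, red higher and blue lower, capped at 3) of the 46 tested Rab genes (rows, grouped by role) in the 16 comparisons (columns). Dots mark an adjusted p under 0.05 and grey marks genes not tested. Most dots lie in the 6 columns of immunized against non-immunized DC, and none in the 3 columns of the costimulation experiment.

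Among the Rabs of the endoplasmic reticulum and Golgi, Rab30, Rab1a and Rab43 rose and Rab6b fell in the time course, while the other members tested there mostly did not pass. Of 11 members of this role tested, 3 rose and 1 fell with CpG at 12 h, 1 rose with CpG at 24 h, 2 rose and 1 fell with OVA at 12 h, and 2 rose and 1 fell with OVA at 24 h. The shares called were 36.4%, 9.09%, 27.3% and 27.3%, against 16.3%, 11%, 13.6% and 14.1% of all genes. Rab30, a Golgi Rab, had 2.45 and 0.898 CPM in the non-immunized libraries, which rests on 3 and 1 counts. It had 16.9 and 16.4 CPM with CpG at 12 h, 9.8 and 7.52 with CpG at 24 h, 3.26 and 5.45 with OVA at 12 h and 15.4 and 14.5 with OVA at 24 h. Every immunized library was above both controls. The log2 change was 3.40 (SE 0.66, adjusted p = 0.00192) with CpG at 12 h, 2.40 (adjusted p = 0.043) with CpG at 24 h and 3.24 (adjusted p = 0.00326) with OVA at 24 h, and OVA at 12 h did not pass (adjusted p = 0.282). The CpG 12 h call held without each of the 4 libraries in turn (adjusted p up to 0.0429), that at 24 h was lost without any 1 of the 4 libraries (adjusted p up to 0.288), and the OVA 24 h call was lost without non-immunized replicate 2 (adjusted p up to 0.063). In the experiment with 5 replicates Rab30 was present in non-immunized DC at 21.8 to 53.1 CPM, and levels of the separate experiments are not compared by a test.

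Rab1a, which acts in transport from the endoplasmic reticulum to the Golgi, had 69.3 and 90.7 CPM in non-immunized DC, 126 and 115 with CpG at 12 h and 163 and 123 with OVA at 12 h. At 24 h it had 91.5 and 74.5 CPM with CpG and 89.5 and 82.1 with OVA, which overlapped the controls. Its log2 change was 0.81 (SE 0.23, adjusted p = 0.0214) with CpG at 12 h and 1.08 (SE 0.22, adjusted p = 0.00343) with OVA at 12 h. Between 12 h and 24 h of OVA it fell, with a log2 change of -0.76 (SE 0.23, adjusted p = 0.0483). The CpG 12 h call was lost without any 1 of the 4 libraries (adjusted p up to 0.216), the OVA 12 h call was lost without non-immunized replicate 1 or OVA 12 h replicate 1 (adjusted p up to 0.0792), and the fall was lost without any 1 of the 4 libraries (adjusted p up to 0.334).

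Rab43, which acts at the Golgi and in cross-presentation by DC, had 74.2 and 89.8 CPM in non-immunized DC and 143 and 153 with OVA at 24 h. With CpG it had 117 and 110.4 CPM at 12 h and 101 and 101 at 24 h, and with OVA at 12 h 81.4 and 110.4, which overlapped the controls. The log2 change was 1.07 (SE 0.21, adjusted p = 0.00196) with OVA at 24 h, a call that held without each of the 4 libraries in turn (adjusted p up to 0.0477). With CpG at 12 h it was 0.69 (adjusted p = 0.0356), a call that was lost without any 1 of the 4 libraries (adjusted p up to 0.251). Rab19 rose with OVA at 12 h, from 89.7 and 70.9 to 105 and 132 CPM, with a log2 change of 0.77 (SE 0.24, adjusted p = 0.0426), but the call was lost without any 1 of the 4 libraries (adjusted p up to 0.323). Conventional DC (cDC) markers also moved against non-immunized DC. Of 7 tested, 5 rose with CpG at 12 h and 4 at 24 h. With OVA 0 rose at 12 h and 4 at 24 h. Of 8 type 1 cDC markers, 5, 4, 3 and 3 rose in the same order, and 1 fell with CpG at 24 h. The part of these cells in the values of Rab30, Rab1a, Rab43, Rab22a and the other members was not tested.

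Rab6b, a Golgi Rab best known from neurons, had 69.3 and 86.2 CPM in non-immunized DC and 23.7 to 35.8, 27.7 to 42.2 and 25.6 to 41.1 CPM in the groups CpG 12 h, OVA 12 h and OVA 24 h, all below the controls. Its fitted fold against the controls was 0.438 (adjusted p = 0.0136), 0.514 (adjusted p = 0.0386) and 0.499 (adjusted p = 0.0338) in these groups. The first call was lost without non-immunized replicate 2 or CpG 12 h replicate 1 (adjusted p up to 0.182), the OVA 12 h call held in 1 of 4 refits, that without OVA 12 h replicate 2, and was otherwise lost (adjusted p up to 0.365), and the OVA 24 h call held in 1 of 4 refits, that without OVA 24 h replicate 2, and was otherwise lost (adjusted p up to 0.298). Beside these falls, 15, 11 and 12 of 18 tested T cell markers fell in the same 3 comparisons, and the part of T cell RNA in the Rab6b values was not tested. In the experiment with 5 replicates Rab6b had 7.93 to 29.7 CPM in non-immunized DC and did not pass with OVA (log2 change 0.57, adjusted p = 0.147). The difference of Rab6b between the experiments was not tested.

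Of the early endosome Rabs, Rab21, Rab22a and Rab5c rose in the time course, whereas Rab5a and Rab5b did not pass there. Of 6 members tested, 1 rose with CpG at 12 h, 1 with CpG at 24 h, 2 with OVA at 12 h and 2 with OVA at 24 h, and none fell. The shares called were 16.7%, 16.7%, 33.3% and 33.3%, against 16.3%, 11%, 13.6% and 14.1% of all genes. Rab21, which acts in integrin traffic and endocytosis, had 54.6 and 68.2 CPM in non-immunized DC, 99.2 and 103 with CpG at 12 h and 99.7 and 96.3 at 24 h. With OVA it had 88.7 and 65.4 CPM at 12 h, which overlapped the controls, and 136 and 140.1 at 24 h, above every other library. The log2 change was 0.93 (adjusted p = 0.00753) and 0.87 (adjusted p = 0.0152) with CpG at 12 h and 24 h and 1.38 (SE 0.21, adjusted p = 0.000265) with OVA at 24 h. The last of these held without each of the 4 libraries in turn (adjusted p up to 0.0131), the CpG 12 h call was lost without non-immunized replicate 1 (adjusted p up to 0.11), and the CpG 24 h call was lost without non-immunized replicates 1 or 2 (adjusted p up to 0.182).

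Rab22a, an endosomal Rab of the recycling and phagosome routes, had 13.9 and 24.2 CPM in non-immunized DC, 34.2 and 39.5 with OVA at 12 h and 43.5 and 36.2 with OVA at 24 h. With CpG it had 32.7 and 22.4 CPM at 12 h and 34.3 and 28.6 at 24 h and did not pass (adjusted p = 0.178 and 0.126). In the fit the log2 change was 1.17 (SE 0.34, adjusted p = 0.0319) and 1.29 (SE 0.35, adjusted p = 0.0193) at the 2 times of OVA. The OVA 12 h call held in 1 of 4 refits, that without non-immunized replicate 2, and was otherwise lost (adjusted p up to 0.267), and that at 24 h was lost without non-immunized replicate 1 or OVA 24 h replicate 1 (adjusted p up to 0.21). DESeq2 passed neither (adjusted p = 0.145 and 0.0993).

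Rab5a, Rab5b and Rab5c are the paralogs that organise the early endosome and its fusion. Only Rab5c passed in the time course, with OVA at 12 h, rising from 211 and 200.2 to 273 and 278 CPM with a log2 change of 0.65 (SE 0.18, adjusted p = 0.0227), and the call was lost without any 1 of the 4 libraries (adjusted p up to 0.189). For Rab5a the 10 libraries ranged from 13.1 to 26.9 CPM, and for Rab5b from 11.4 to 24.8 CPM, with the groups largely overlapping. Rab31 did not pass against non-immunized DC in any group but fell between 12 h and 24 h of CpG, from 22.5 and 19.4 to 6.54 and 5.27 CPM, with a log2 change of -1.88 (SE 0.53, adjusted p = 0.0377), a call that held in 1 of 4 refits, that without CpG 24 h replicate 1, and was otherwise lost (adjusted p up to 0.232).

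**Figure D3:**
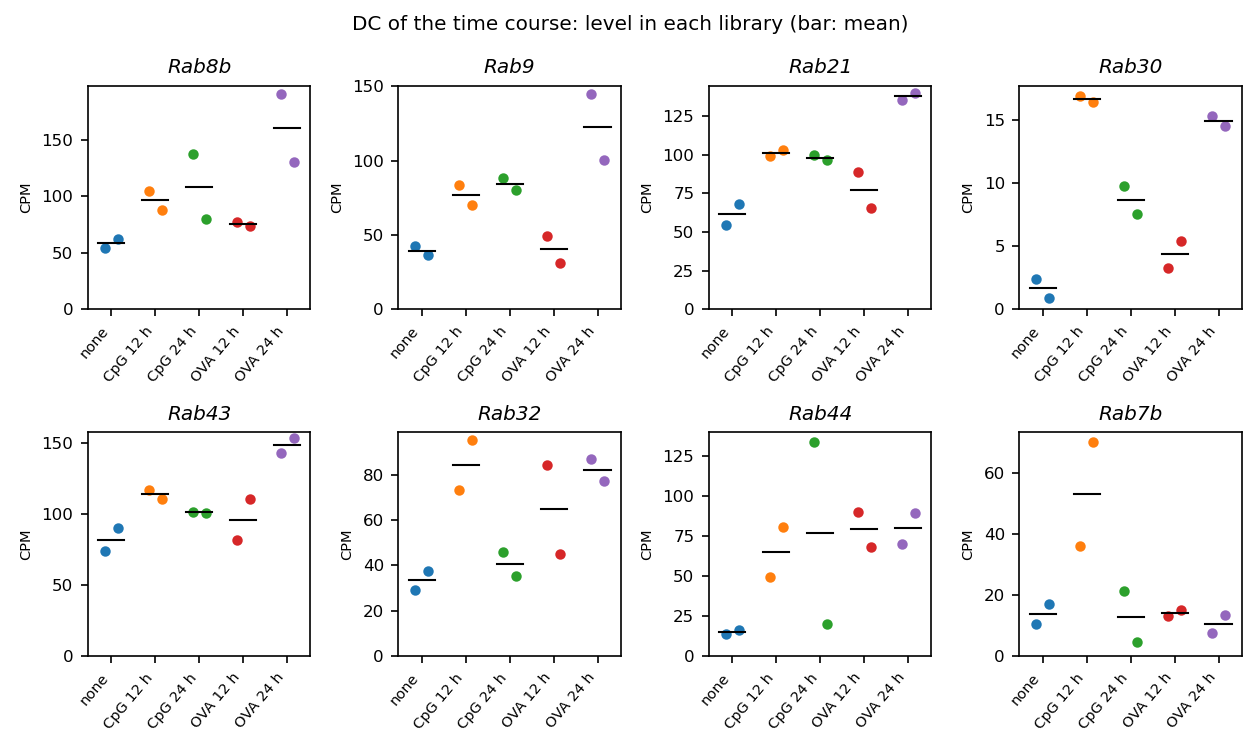
Level (CPM, vertical axes starting at 0) of 8 Rab genes in each of the 10 DC libraries of the time course, by group, with points for libraries and bars for the mean of 2. Rab9, Rab21 and Rab43 are highest in the OVA 24 h libraries, Rab8b is highest there by the mean of the group, Rab7b is highest in those with CpG at 12 h, and 1 of the CpG 24 h libraries is low for Rab44.

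In the recycling and exocytic group Rab8b rose with CpG at both times and with OVA at 24 h, and Rab11a was the other member called in the time course. Of 10 members tested, 1 rose with CpG at 12 h, 1 with CpG at 24 h, none with OVA at 12 h and 2 with OVA at 24 h. The shares called were 10%, 10%, 0% and 20%, against 16.3%, 11%, 13.6% and 14.1% of all genes. Rab8b, which acts in transport to the plasma membrane, had 54.6 and 61.9 CPM in non-immunized DC. With CpG it had 105 and 88.0 CPM at 12 h and 137 and 79.7 at 24 h. With OVA it had 77.3 and 73.6 CPM at 12 h and 191 and 130.5 at 24 h. All immunized libraries were above both controls. The log2 change was 0.95 (adjusted p = 0.0333) and 1.05 (adjusted p = 0.0236) with CpG and 1.68 (SE 0.28, adjusted p = 0.000464) with OVA at 24 h, while OVA at 12 h did not pass (adjusted p = 0.188). Between 12 h and 24 h of OVA it rose by 1.08 (SE 0.28, adjusted p = 0.0213) on the log2 scale. The OVA 24 h call against non-immunized DC held without each of the 4 libraries in turn (adjusted p up to 0.0156). The CpG 12 h call was lost without any 1 of the 4 libraries (adjusted p up to 0.192), the CpG 24 h call held in 1 of 4 refits, that without CpG 24 h replicate 2, and was otherwise lost (adjusted p up to 0.174), and the rise between the times held in 1 of 4 refits, that without OVA 24 h replicate 2, and was otherwise lost (adjusted p up to 0.31).

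Rab11a, the Rab of the recycling endosome from which MHC class I molecules reach phagosomes, had 95.4 and 97.9 CPM in non-immunized DC and 132 and 140.1 with OVA at 24 h. It had a log2 change of 0.71 (SE 0.22, adjusted p = 0.0398), and the call was lost without any 1 of the 4 libraries (adjusted p up to 0.189). With CpG at 12 h its log2 change was 0.65 and did not pass (adjusted p = 0.0527). Rab14, which acts between the Golgi and endosomes and delays phagosome maturation, had log2 changes of 0.02, 0.06, -0.04 and -0.02 in the 4 comparisons, none of which passed. Its CPM per library total lay between 326 and 387 in the immunized libraries and was 383 and 461 in the controls, with overlap.

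Among the Rabs of late endosomes and lysosomes, Rab9 rose in 3 of the 4 groups and Rab7b in 1, and Rab7 itself did not pass. Rab9, which returns mannose 6-phosphate receptors from late endosomes to the Golgi, had 42.4 and 36.8 CPM in non-immunized DC. With CpG it had 83.4 and 70.1 CPM at 12 h and 88.2 and 80.5 at 24 h. With OVA it had 49.7 and 31.3 CPM at 12 h and 145 and 100.3 at 24 h. The OVA 12 h libraries overlapped the controls, and the other immunized libraries were above them. Its log2 change was 1.17 (adjusted p = 0.0083) and 1.28 (adjusted p = 0.00565) with CpG and 1.84 (SE 0.27, adjusted p = 0.000148) with OVA at 24 h. Between 12 h and 24 h of OVA it rose by 1.54 (SE 0.27, adjusted p = 0.00182) on the log2 scale. The OVA 24 h call held without each of the 4 libraries in turn (adjusted p up to 0.00775), the CpG 12 h call was lost without non-immunized replicate 2 or CpG 12 h replicate 1 (adjusted p up to 0.102), the CpG 24 h call was lost without non-immunized replicate 2 (adjusted p up to 0.0895), and the rise between the times was lost without OVA 24 h replicate 1 (adjusted p up to 0.0545). Markers of migratory DC rose where Rab8b, Rab9 and Rab21 did. Of 6 tested, 6 rose with CpG at 12 h, 5 with CpG at 24 h, 3 with OVA at 12 h and 5 with OVA at 24 h, and the part of a change in DC composition was not tested.

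Rab7b, which acts between late endosomes and the trans-Golgi and limits Toll-like receptor 9 in macrophages, had 10.6 and 17.1 CPM in non-immunized DC and 36.1 and 70.1 with CpG at 12 h. At 24 h of CpG it had 21.2 and 4.51 CPM, and with OVA 13.0 and 15.0 at 12 h and 7.67 and 13.3 at 24 h. The log2 change was 2.13 (SE 0.50, adjusted p = 0.00734) with CpG at 12 h, and -2.29 (SE 0.55, adjusted p = 0.0173) between 12 h and 24 h of CpG. The first call was lost without non-immunized replicate 1 or CpG 12 h replicate 2 (adjusted p up to 0.118), and the second was lost without CpG 12 h replicate 2 or CpG 24 h replicate 2 (adjusted p up to 0.178). Rab7, the main Rab of late endosome and phagosome maturation, had 174 and 198 CPM in non-immunized DC and 149 to 233 in the immunized libraries, with log2 changes of 0.40, 0.07, 0.31 and 0.28 that did not pass.

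Of the Rabs of secretory granules and lysosome-related organelles, Rab44, Rab32 and Rab29 rose and Rab3d and Rab37 fell. Of 6 members tested, 3 rose and 1 fell with CpG at 12 h, 1 rose and 1 fell with CpG at 24 h, 3 rose with OVA at 12 h and 2 with OVA at 24 h. The shares called were 66.7%, 33.3%, 50% and 33.3%, against 16.3%, 11%, 13.6% and 14.1% of all genes. Rab44, a large Rab of granulated leukocytes, had 13.9 and 16.2 CPM in non-immunized DC. With CpG it had 49.6 and 80.6 CPM at 12 h and 134 and 20.3 at 24 h. With OVA it had 90.3 and 68.1 CPM at 12 h and 70.4 and 89.4 at 24 h. All 8 immunized libraries were above the controls, and the second CpG 24 h library was close to them. On the log2 scale it changed by 2.30, 2.39, 2.64 and 2.62 in the 4 comparisons (adjusted p = 0.0189, 0.0198, 0.00723 and 0.00764). The CpG 12 h call held in 1 of 4 refits, that without CpG 12 h replicate 1, and was otherwise lost (adjusted p up to 0.147), the CpG 24 h call held in 1 of 4 refits, that without CpG 24 h replicate 2, and was otherwise lost (adjusted p up to 0.462), the OVA 12 h call held in 1 of 4 refits, that without OVA 12 h replicate 2, and was otherwise lost (adjusted p up to 0.0917), and the OVA 24 h call was lost without non-immunized replicates 1 or 2 (adjusted p up to 0.0786). Neutrophil markers moved in the same direction: 9 of 10 tested rose with CpG at 12 h, 8 with OVA at 12 h and 6 with OVA at 24 h. With CpG at 24 h 1 rose and 1 fell, and the marker sum was 871 CPM in replicate 1 and 105 in replicate 2. The part of neutrophil RNA in the Rab44 values was not tested.

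Rab32, which acts in lysosome-related organelles and in defence against bacteria, had 29.4 and 37.7 CPM in non-immunized DC, 73.2 and 95.5 with CpG at 12 h, 84.7 and 45.0 with OVA at 12 h and 87.0 and 77.3 with OVA at 24 h. With CpG at 24 h it had 45.8 and 35.4 CPM, which overlapped the controls. The log2 change was 1.54 (SE 0.30, adjusted p = 0.00207) with CpG at 12 h, 1.22 (adjusted p = 0.0123) with OVA at 12 h and 1.51 (adjusted p = 0.00245) with OVA at 24 h. Between 12 h and 24 h of CpG it fell, with a log2 change of -1.10 (adjusted p = 0.0384). The CpG 12 h call held without each of the 4 libraries in turn (adjusted p up to 0.0432), the OVA 24 h call held without each of the 4 libraries in turn (adjusted p up to 0.0493), the OVA 12 h call held in 1 of 4 refits, that without OVA 12 h replicate 2, and was otherwise lost (adjusted p up to 0.321), and the fall held in 1 of 4 refits, that without CpG 24 h replicate 1, and was otherwise lost (adjusted p up to 0.232). The 3 groups in which Rab32 was called are those in which the neutrophil markers rose as given for Rab44, and the part of neutrophil RNA in the Rab32 values was not tested.

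Rab29, the Rab that recruits the kinase LRRK2, had 62.8 and 26.9 CPM in non-immunized DC, 90.1 and 85.1 with CpG at 12 h and 96.9 and 94.0 with OVA at 12 h. In the fit the log2 change was 1.17 (SE 0.30, adjusted p = 0.0124) and 1.30 (SE 0.29, adjusted p = 0.00612), and the 24 h groups did not pass. The CpG call held in 1 of 4 refits, that without non-immunized replicate 1, and was otherwise lost (adjusted p up to 0.171), and the OVA call was lost without non-immunized replicate 2 or OVA 12 h replicate 1 (adjusted p up to 0.103). Rab27a, which tethers granules at the plasma membrane and controls phagosome pH in DC, had 125 and 144 CPM in non-immunized DC and 108 to 190 in immunized DC and passed in no comparison, with log2 changes of 0.33, 0.32, 0.46 and 0.41.

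Rab3d, a Rab of secretory granules, fell with CpG at 24 h, from 43.2 and 53.0 to 19.6 and 17.3 CPM, with a log2 change of -1.20 (SE 0.30, adjusted p = 0.0164). It had 43.9 and 43.3 CPM with CpG at 12 h, and its fall between 12 h and 24 h had a log2 change of -1.27 (adjusted p = 0.0207). The first call was lost without non-immunized replicate 2 or CpG 24 h replicate 2 (adjusted p up to 0.143), and the second held in 1 of 4 refits, that without CpG 24 h replicate 1, and was otherwise lost (adjusted p up to 0.154). Rab37, which acts in secretion by mast cells and T cells, had 123 and 109 CPM in non-immunized DC and 67.6 and 37.3 with CpG at 12 h, with a log2 change of -0.90 (SE 0.28, adjusted p = 0.0349), and the call held in 1 of 4 refits, that without CpG 12 h replicate 1, and was otherwise lost (adjusted p up to 0.361). The other 6 immunized libraries lay between 48.6 and 79.7 CPM, below both controls, and did not pass. The T cell marker sum was lower in the same libraries, as given above, and its part in the Rab37 values was not tested.

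Between the 2 immunizations no member was called. Of 39 members, none was called for OVA against CpG at 12 h, where 2.46% of all genes were (0.753% higher and 1.71% lower), and none at 24 h, where 0% of all genes were. At an unadjusted p under 0.05 there were 5 members at each time, and DESeq2 called 0 at both. The smallest adjusted p at 12 h was that of Rab7b (log2 change -1.89, adjusted p = 0.0703) and at 24 h that of Rab32 (log2 change 1.07, adjusted p = 0.208). Without CpG 24 h replicate 1, Rab8b, Rab32 and Rab44 were called higher with OVA at 24 h. That library had 134 CPM of Rab44 and 137 of Rab8b, and replicate 2 had 20.3 and 79.7.

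The change over time was tested within each immunization. With CpG, none of 39 members rose and 4 fell from 12 h to 24 h (Rab7b, Rab31, Rab3d and Rab32), where 7.63% of all genes were called (3.36% higher and 4.26% lower). Of the 4, DESeq2 called only Rab7b, and without CpG 12 h replicate 2 no member was called. Beside these falls, 10 of 11 tested monocyte and macrophage markers fell, from a summed level of 2632 to 2953 CPM to one of 871 to 1176, and 8 of 10 neutrophil markers fell. Their part in the member values was not tested. With OVA, Rab9, Rab8b and Rab21 rose and Rab1a fell, where 8.9% of all genes were called (5.03% higher and 3.87% lower), and 5 of 6 tested migratory DC markers rose, from a sum of 811 to 1017 CPM to one of 3973 to 5151, while all 11 tested monocyte and macrophage markers fell. Their part in the member values was not tested. DESeq2 called only Rab9 of the 4, and without OVA 24 h replicate 1 no member was called.

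The difference of these differences, OVA against CpG at 24 h minus the same at 12 h, was called for 0 of 39 members, where 3.38% of all genes were called (2.69% with a positive difference). At an unadjusted p under 0.05 there were 7 members, and DESeq2 called 0. Rab9 was nearest, at 1.44 (SE 0.38, adjusted p = 0.0514), followed by Rab30 (2.81, adjusted p = 0.0765) and Rab32 (1.38, adjusted p = 0.0926). Without CpG 24 h replicate 1, 5 members were called: Rab7b, Rab8b, Rab9, Rab32 and Rab44. Rab9 was also called with the replicate number as a block and with scaling by library totals.

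Promoter sequences of the members were searched for motifs of the pathways that activate DC. The RefSeq table for the GRCm38.p6 build had a window for 48 of the 59 members, and 250 bases upstream of the start were searched on both strands. The table has no window for Rab30 or Rab44. The motifs were the NF-kB decamer, an interferon response motif (GAAA, then 2 bases of any kind, then GAAA) and the STAT site TTCNNNGAA, which is its own reverse complement. Of all 32851 windows of this length, 3.9% hold the NF-kB motif, 2.98% the interferon motif and 7.02% the STAT site. Of the 60 windows of the members, 2 hold the NF-kB motif (Rab15 and Rab28), 1 the interferon motif (Rab19) and 5 the STAT site (Rab11a, Rab15, Rab19, Rab25 and Rab34). Of the 21 called members with a window, 2 hold a match, Rab11a and Rab19. Both are shown with their matches in capitals, beside Rab8b and Rab9, which rose in 4 and 3 of the 6 comparisons with non-immunized DC and hold none of the 3 motifs. The windows are Rab11a at chr9:64737757-64738006 on the minus strand, Rab19 at chr6:39381103-39381352 on the plus strand, Rab8b at chr9:66919706-66919955 on the minus strand and Rab9 at chrX:166479868-166480117 on the minus strand, each printed 5′ to 3′ up to the base before the start.
Rab11a: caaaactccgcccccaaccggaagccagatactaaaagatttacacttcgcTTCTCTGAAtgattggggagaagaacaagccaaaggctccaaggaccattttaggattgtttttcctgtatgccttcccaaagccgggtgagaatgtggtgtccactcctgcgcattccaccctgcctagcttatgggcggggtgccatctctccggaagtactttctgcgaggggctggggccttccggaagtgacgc
Rab19: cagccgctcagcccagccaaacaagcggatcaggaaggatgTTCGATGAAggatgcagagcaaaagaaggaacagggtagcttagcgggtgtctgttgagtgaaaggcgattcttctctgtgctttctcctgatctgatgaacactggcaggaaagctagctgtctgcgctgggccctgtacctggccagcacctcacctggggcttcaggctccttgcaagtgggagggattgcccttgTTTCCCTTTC
Rab8b: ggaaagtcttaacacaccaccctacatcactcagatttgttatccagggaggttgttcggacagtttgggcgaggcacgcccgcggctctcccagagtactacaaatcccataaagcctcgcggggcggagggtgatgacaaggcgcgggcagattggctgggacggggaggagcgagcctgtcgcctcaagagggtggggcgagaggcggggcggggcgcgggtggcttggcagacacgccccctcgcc
Rab9: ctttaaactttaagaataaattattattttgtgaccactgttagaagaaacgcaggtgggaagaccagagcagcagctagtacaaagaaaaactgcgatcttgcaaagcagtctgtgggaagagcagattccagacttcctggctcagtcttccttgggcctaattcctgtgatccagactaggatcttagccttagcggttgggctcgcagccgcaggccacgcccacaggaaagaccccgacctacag
In Rab11a the capitals mark a STAT site, and in Rab19 the first capitals mark a STAT site and the last ones the interferon motif on the minus strand. A match is a description of these letters, not a bound site, and a window without a match says only that these motifs are not in it.

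In the costimulation experiment no member was called in any of the 3 comparisons at 12 h. Addition of OT cells to OVA called 0 of 42 members, where 2.6% of 9355 genes were called (1.27% higher and 1.33% lower). At an unadjusted p under 0.05 there were 6 members, and DESeq2 called 0. The members nearest to a call were Rab37, with 8.02 and 17.9 CPM without and 3.05 and 1.25 with OT cells (log2 change -2.34, SE 0.79, adjusted p = 0.152), and Rab8b, with 114 and 86.3 CPM without and 171 and 172 with them (log2 change 0.82, SE 0.28, adjusted p = 0.153). For both genes the libraries did not overlap. The T cell marker sum was 547 to 1214 CPM without OT cells and 199 to 283 with them, the NK cell marker sum 2397 to 5933 against 97.6 to 243, and all 8 NK markers and 8 of 15 tested T cell markers fell. Migratory DC markers summed to 1530 to 2878 CPM without OT cells and 6714 to 7904 with them, and 2 of 7 tested rose. The cDC markers summed to 5501 to 10000.5 and 14031 to 15134 CPM, and 1 of 8 rose. Plasmacytoid DC markers summed to 2767 to 4565 and 1039 to 1096 CPM, and 0 of 7 were called. Their part in the member values was not tested. Rab21, with 89.4 and 112 against 171 and 158 CPM, had a log2 change of 0.77 (adjusted p = 0.166).

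With OT cells in both groups, OVA against BSA called 0 of 42 members, where 0.0107% of all genes were called, 2 members had an unadjusted p under 0.05 and DESeq2 called 0. The smallest adjusted p was 0.51, for Rab6b. Cd80/86 -/- against wild-type mice called 0 of 42 members, where 0% of all genes were called, 3 members had an unadjusted p under 0.05 and DESeq2 called 0. Rab21 was nearest in that comparison, with 113 and 78.3 CPM in the knockout and 171 and 158 in the wild type (log2 change -0.84, SE 0.28, adjusted p = 0.343). For Rab5c the values were 228 and 179 and 331 and 305 CPM (log2 change -0.71, adjusted p = 0.409), again without overlap. Monocyte and macrophage markers summed to 8166 to 9927 CPM in the knockout and 5165 to 5187 in the wild type. The same sums were 2569 to 2584 and 1039 to 1096 for plasmacytoid DC markers, and 3197 to 3707 and 6714 to 7904 for migratory DC markers. None of these markers was called, and the part of these cells in the member values was not tested. Among members of the secretory group, Rab32 had 307 and 103 CPM in the 2 libraries of OVA without OT cells, a wide gap within 1 group, and Rab27a had 50.9 to 66.0 CPM with BSA and 83.9 to 84.5 with OVA (adjusted p = 0.576).

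At 20 h, in the experiment with 5 replicates, recycling and exocytic Rabs and early endosome Rabs made up 9 of the 11 rises with OVA. Of 10 recycling and exocytic members tested, 6 rose (Rab8a, Rab8b, Rab10, Rab11a, Rab11b and Rab13), and of 6 early endosome members 3 rose (Rab5b, Rab5c and Rab22a). These shares are 60% and 50%, where 9.59% of all genes were called higher. The other rises were Rab1b and Rab29, and Rab7b and Rab42 fell. Called members whose libraries overlap between the groups (Rab5b, Rab5c, Rab8b, Rab11a, Rab11b, Rab13, Rab22a and Rab29 here, Rab1b and Rab30 with BSA) fall outside the rule for naming genes and are named after their values were seen. Rab10, which acts in secretion and in Toll-like receptor 4 traffic, had 85.4, 92.8, 84.4, 101 and 91.4 CPM in the 5 non-immunized libraries. It had 122, 136, 147, 142 and 114 CPM with OVA and 109, 124, 114, 120.2 and 128 with BSA. The means were 91.1 ± 6.79, 132 ± 13.9 and 119 ± 7.69 CPM (SD, n = 5 each), and every immunized library was above every control. Its log2 change was 0.68 (SE 0.12, adjusted p = 0.000526) with OVA, and the call held without each of the 10 libraries in turn (adjusted p up to 0.00369).

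Rab8a, the close paralog of Rab8b, had 152, 196, 182, 192 and 223 CPM in non-immunized DC, 269.6, 276, 357, 234 and 323 with OVA and 325, 229.9, 224, 236 and 259 with BSA. No immunized library overlapped the controls. With OVA its log2 change was 0.78 (SE 0.16, adjusted p = 0.00183), and the call held without each of the 10 libraries in turn (adjusted p up to 0.0111). Rab8b had 137, 148, 182, 195 and 116 CPM in non-immunized DC and 167, 219, 329.8, 273 and 171 with OVA, and the libraries overlapped. It had a log2 change of 0.73 (SE 0.18, adjusted p = 0.00896), and the call held without each of the 10 libraries in turn (adjusted p up to 0.0377). Rab13, an exocytic Rab, had 10.9 to 25.0 CPM in non-immunized DC and 23.6 to 38.0 with OVA (log2 change 0.92, SE 0.24, adjusted p = 0.0138), and the call was lost without non-immunized replicate 1 (adjusted p up to 0.0532). Rab11a and Rab11b rose by 0.42 and 0.44 on the log2 scale (adjusted p = 0.0397 and 0.0387), with overlapping libraries of 149 to 198 against 171 to 265 CPM and 106 to 178 against 173 to 231 CPM. The Rab11a call was lost without non-immunized replicates 1, 3, 4 or 5 or OVA replicates 3, 4 or 5 (adjusted p up to 0.146), and the Rab11b call was lost without non-immunized replicates 1, 2, 3 or 4 or OVA replicates 1, 3 or 5 (adjusted p up to 0.107).

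Of the early endosome Rabs, Rab22a had 36.1, 44.1, 10.9, 40.9 and 39.8 CPM in non-immunized DC and 43.2, 60, 77.5, 60.2 and 73.4 with OVA. The lowest OVA library lay just under the highest control. Its log2 change was 0.93 (SE 0.22, adjusted p = 0.0052), the call held without each of the 10 libraries in turn (adjusted p up to 0.0212), and the value was 0.74 (adjusted p = 0.013) without non-immunized replicate 3 and OVA replicate 3 together. Rab5b had 21.9, 28.2, 21.8, 17.1 and 23.2 CPM in non-immunized DC and 27.5, 34.9, 33.6, 40.4 and 28.7 with OVA, with a log2 change of 0.71 (SE 0.21, adjusted p = 0.0249), and the call was lost without non-immunized replicates 1 or 4 or OVA replicates 2 or 4 (adjusted p up to 0.0871). Rab5c had 177, 224, 188, 223 and 199 CPM in non-immunized DC and 195, 253, 457, 262 and 268 with OVA, with a log2 change of 0.65 (SE 0.18, adjusted p = 0.0172). OVA replicate 3 was far above the other 4, and the call was lost without non-immunized replicate 1 or OVA replicate 3 (adjusted p up to 0.0741). Rab5a, the remaining paralog, had 21.9, 14.5, 19.1, 17.7 and 16.6 CPM in non-immunized DC, 8.64, 13.1, 7.79, 9.92 and 13.4 with OVA and 10.8, 8.66, 8.02, 8.76 and 13.6 with BSA. Every immunized library lay below every control, but the log2 changes of -0.60 and -0.68 did not pass (adjusted p = 0.106 and 0.123), and with scaling by library totals both were called lower. The difference between the paralogs was not tested.

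**Figure D4:**
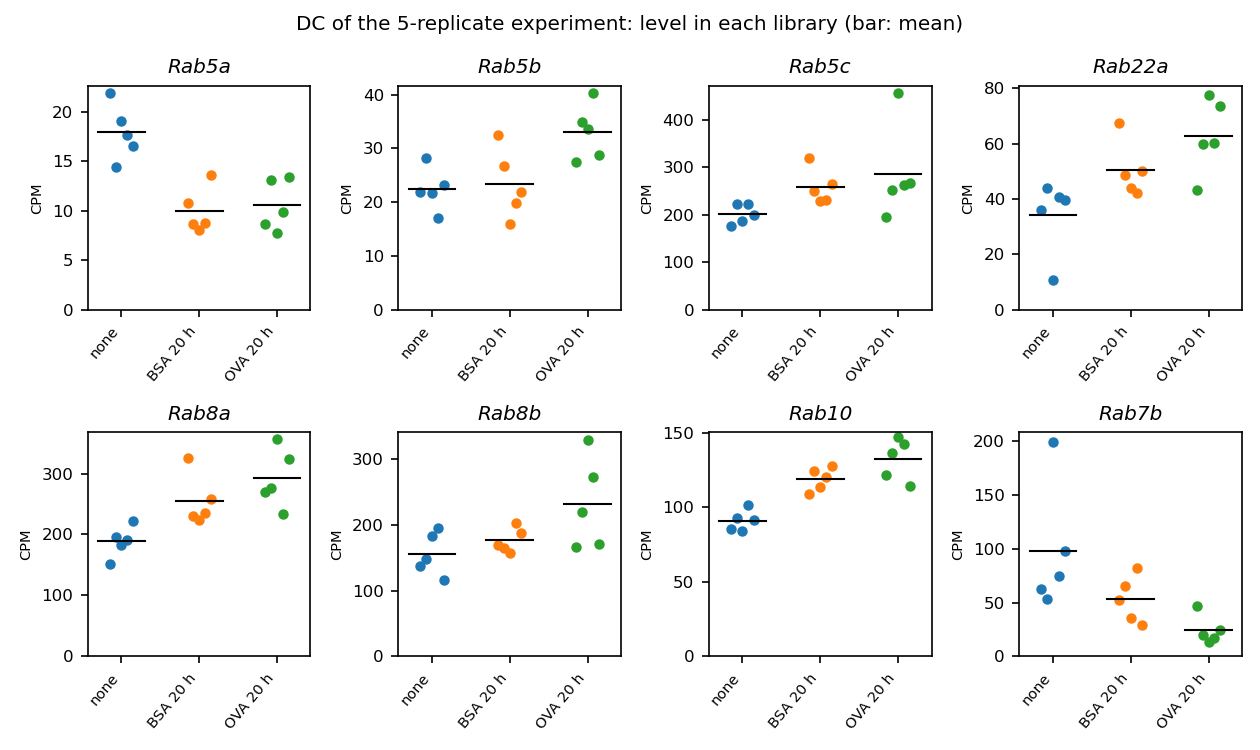
Level (CPM, vertical axes starting at 0) of 8 Rab genes in each of the 15 DC libraries of the experiment with 5 replicates, by group, with points for libraries and bars for the mean of 5. Rab8a and Rab10 are above all controls in both immunized groups, the immunized Rab5a libraries lie below all controls, Rab7b is below all controls with OVA but overlaps them with BSA, and single libraries stand apart for Rab5c, Rab7b and Rab22a.

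Rab1b, the paralog of Rab1a, had 66.8, 63.1, 62.6, 73.9 and 81.5 CPM in non-immunized DC and 93.5, 81.8, 129.6, 86.4 and 86.2 with OVA, the lowest of which was just above the highest control. Its log2 change was 0.60 (SE 0.15, adjusted p = 0.00794), and the call held without each of the 10 libraries in turn (adjusted p up to 0.0329). Rab29 had 59.1 to 89.9 CPM in non-immunized DC and 88.7 to 161 with OVA, with a log2 change of 0.93 (SE 0.21, adjusted p = 0.00489), and the call held without each of the 10 libraries in turn (adjusted p up to 0.0224). Rab7b fell, from 62.4, 53.3, 199, 75.1 and 98.1 to 47.2, 19.6, 13.6, 17.0 and 24.9 CPM, with no overlap and a log2 change of -1.77 (SE 0.37, adjusted p = 0.00249). Its call held without each of the 10 libraries in turn (adjusted p up to 0.00778), and the value was -1.23 (adjusted p = 0.00857) without the 2 libraries that stand apart, 1 of which held the highest control value. Rab42, a little studied member, fell, with 34.8 to 62.4 CPM in non-immunized DC and 16.6 to 26.9 with OVA and a log2 change of -0.79 (SE 0.20, adjusted p = 0.0119), and the call held without each of the 10 libraries in turn (adjusted p up to 0.0441). Monocyte and macrophage markers fell in the same comparison, 8 of 9 tested, with a summed level of 742 to 2366 CPM in non-immunized and 153 to 335 in OVA libraries. Migratory DC markers summed to 8687 to 14956 CPM in non-immunized and 15337 to 21613 in OVA libraries, and 3 of 8 tested rose and 1 fell. Of 6 cDC2 markers tested 5 fell, with a summed level of 376 to 888 CPM in non-immunized and 187 to 265 in OVA libraries, and both NK cell markers tested rose. The part of any of these in the member values was not tested.

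Without non-immunized replicate 3 and OVA replicate 3 together, an alternative chosen after seeing the data, 10 members were called with OVA (8 higher and 2 lower), 9 of them among the 13. The calls of Rab5c, Rab11a, Rab11b and Rab13 were lost (adjusted p = 0.0753, 0.137, 0.154 and 0.0584). Without non-immunized replicate 1 alone, 8 were called. Members that the time course called and this experiment did not pass with OVA include Rab9 (153 to 262 CPM in non-immunized and 182 to 292 in OVA libraries, log2 change 0.25, adjusted p = 0.265), Rab21 (193 to 264 and 208 to 467 CPM, 0.47, adjusted p = 0.0682) and Rab32 (177 to 229 and 124 to 222 CPM, -0.10, adjusted p = 0.716). The difference between the experiments was not tested. Rab7 (0.37, adjusted p = 0.152), Rab14 (-0.27, adjusted p = 0.305) and Rab27a (-0.15, adjusted p = 0.681) did not pass here either. Rab44 was below the filter, with 0 to 7.07 CPM over the 10 non-immunized and OVA libraries.

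With BSA at 20 h, Rab10, Rab8a, Rab1b and Rab30 rose against the same controls. Their log2 changes were 0.52 (SE 0.12, adjusted p = 0.0138), 0.58 (SE 0.16, adjusted p = 0.0349), 0.53 (SE 0.15, adjusted p = 0.0383) and 0.65 (SE 0.17, adjusted p = 0.0276). Rab30 had 43.8, 44.1, 21.8, 53.1 and 34.5 CPM in non-immunized DC and 50.7, 63.0, 72.2, 56.5 and 49.9 with BSA, which overlapped. With a term for libraries with Y-linked transcripts, which 3 of the 5 non-immunized and none of the BSA libraries hold above 20 CPM, 1 of the 4 was called, and with scaling by library totals none of the 4 was. Without non-immunized replicate 1 no member was called. The Rab10 call was lost without non-immunized replicate 1 (adjusted p up to 0.0565), the Rab8a call was lost without non-immunized replicates 1, 2, 3 or 4 or BSA replicates 1 or 5 (adjusted p up to 0.151), the Rab1b call was lost without non-immunized replicates 1, 2, 3 or 4 or BSA replicates 1, 2, 3 or 5 (adjusted p up to 0.138), and the Rab30 call was lost without non-immunized replicates 1, 2, 3 or 5 or BSA replicates 1 or 3 (adjusted p up to 0.093). In the same comparison 8 of 9 tested monocyte and macrophage markers fell, to a summed level of 233 to 386 CPM, 4 of 6 cDC2 markers fell and 3 of 8 migratory DC markers rose. Their part in the member values was not tested.

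Between OVA and BSA at 20 h, 0 of 40 members were called, where 0% of all genes were. At an unadjusted p under 0.05 there were 4 members, and DESeq2 called 0. The smallest adjusted p was that of Rab7b, with 24.5 ± 13.3 CPM with OVA and 53.1 ± 21.4 with BSA (SD, n = 5 each) and a log2 change of -1.11 (SE 0.37, adjusted p = 0.635). Rab5b followed, with a log2 change of 0.51 (SE 0.20, adjusted p = 0.766).

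In OT-II T cells at 20 h, 1 of 25 members tested rose and 1 fell with OVA against BSA, where 15.9% of 6452 genes were called (10.8% higher and 5.04% lower). Values of T cells are the authors' normalized counts, tested with limma on log2(normalized count + 1), so the change of low genes is understated. Rab8b had 16.3, 23.8 and 22.4 normalized counts with BSA and 52.5, 33.6 and 37.7 with OVA, without overlap, and a log2 change of 0.94 (SE 0.28, adjusted p = 0.0409). Rab37 had 19.3, 26.5 and 36.7 normalized counts with BSA and 7.35, 14.8 and 10.8 with OVA, again without overlap, and a log2 change of -1.25 (SE 0.36, adjusted p = 0.0364). These values rest on 9 to 22 recovered reads of Rab8b in the BSA libraries and 50 to 122 in the OVA libraries, and on 7 to 36 reads of Rab37. The Rab8b call was lost without BSA replicates 1 or 3 or OVA replicates 1 or 3 (adjusted p up to 0.167), and the Rab37 call was lost without BSA replicates 2 or 3 or OVA replicates 1 or 3 (adjusted p up to 0.149).

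Rab4b, which acts in fast recycling, had 72.7, 82.1 and 57.1 normalized counts with BSA and 29.4, 45.0 and 46.0 with OVA. Its log2 change of -0.81 (SE 0.26, adjusted p = 0.0531) did not pass, whereas edgeR on the recovered reads called it along with Rab8b and Rab37. Rab11a had 17.8, 39.7 and 17.3 normalized counts with BSA and 44.1, 34.9 and 36.7 with OVA, where 1 BSA library overlapped the OVA libraries (log2 change 0.71, adjusted p = 0.157). Rab27a, known from T cell granule release, ranged from 4.45 to 42.4 normalized counts in the BSA libraries and 11.5 to 17.0 in the OVA libraries (adjusted p = 0.945). Rab7 (0.43, adjusted p = 0.263), Rab14 (-0.36, adjusted p = 0.2), Rab5c (-0.01, adjusted p = 0.978) and Rab43 (-0.00, adjusted p = 0.994) did not pass. The median log2 change of the 25 members was -0.07 and that of all genes 0.04. T cell libraries also held markers of other cells: 10 of 17 monocyte and macrophage markers were listed and summed to 98.7 to 510.1 normalized counts. The cDC markers (6 of 8 listed) summed to 2741 to 3612 normalized counts with BSA and 448 to 3027 with OVA, beside 2852 to 3148 and 2162 to 2476 for the T cell markers. B cell markers (10 of 12 listed) summed to 485 to 838 with BSA and 67.2 to 753 with OVA. Of the cDC and B cell markers tested, 5 and 10, none passed and every one had a negative log2 change. The part of these cells in the member values was not tested.

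**Figure D5:**
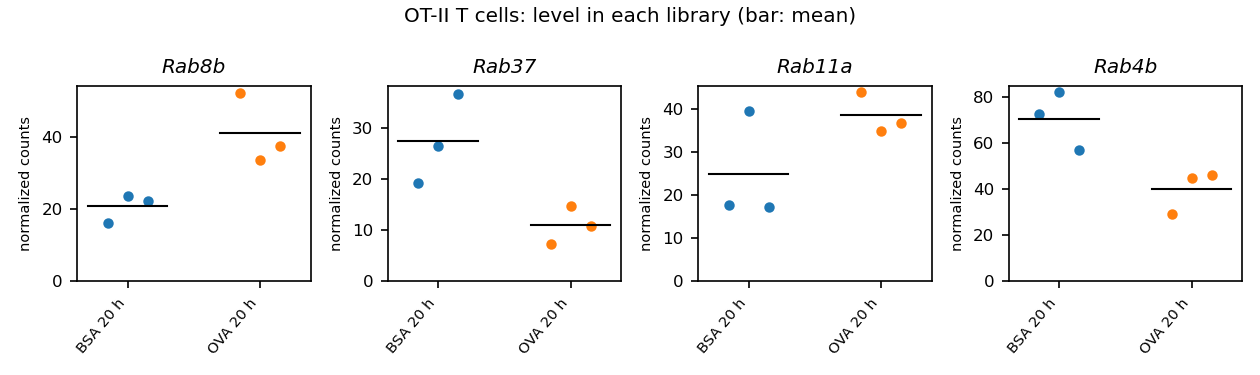
Level (the authors' normalized counts, vertical axes starting at 0) of 4 Rab genes in each of the 6 OT-II T cell libraries, with points for libraries and bars for the mean of 3. The OVA libraries lie above the BSA libraries for Rab8b and below them for Rab37 and Rab4b, and for Rab11a 1 BSA library lies among the OVA libraries.

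Among the proteins that regulate and read the Rabs, the GAPs Tbc1d4 and Tbc1d8 and the effector Lrrk1 rose most in immunized DC of the time course, where carriers gave no call against non-immunized DC. The lists hold 8 carriers, 41 GEFs, 33 GAPs and 63 effectors found in the tables. Whether calls of these genes held without single libraries or under the other alternatives was not examined. Of 7 carriers tested in the time course none was called in any comparison with non-immunized DC. Of 37 GEFs, 3 rose and 1 fell with CpG at 12 h, 4 and 0 with CpG at 24 h, 1 and 1 with OVA at 12 h, and 5 and 0 with OVA at 24 h. Of 26 GAPs, 3 rose and 2 fell with CpG at 12 h, 2 and 1 with CpG at 24 h, 1 and 1 with OVA at 12 h, and 3 and 2 with OVA at 24 h. Of 48 effectors, 4 rose and 0 fell with CpG at 12 h, 4 and 2 with CpG at 24 h, 1 and 0 with OVA at 12 h, and 6 and 0 with OVA at 24 h. In the same order of comparisons, 16.3%, 11%, 13.6% and 14.1% of all genes were called. The shares were 10.8%, 10.8%, 5.41% and 13.5% for GEFs and 19.2%, 11.5%, 7.69% and 19.2% for GAPs. For effectors they were 8.33%, 12.5%, 2.08% and 12.5%.

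Among the GAPs, Tbc1d4, known from glucose transporter traffic, and Tbc1d8 rose and Tbc1d10c, a GAP of lymphocytes, fell. Tbc1d4 had 58.9 ± 15.9 CPM in non-immunized DC and 433 ± 65.9 with OVA at 24 h (SD, n = 2 each), a log2 change of 3.09 (SE 0.32, adjusted p = 5.37e-06). With CpG its log2 change was 2.17 at both times (adjusted p = 0.000207 at 12 h and 0.000267 at 24 h). Tbc1d8 had 37.0 ± 6.55 CPM in non-immunized DC and 195 ± 21.1 with OVA at 24 h, a log2 change of 2.61 (SE 0.28, adjusted p = 6.45e-06). Both were lower with OVA than with CpG at 12 h, by log2 changes of -1.67 (adjusted p = 0.0114) for Tbc1d4 and -1.16 (adjusted p = 0.0342) for Tbc1d8, and both rose from 12 h to 24 h of OVA. Tbc1d10c had 789 ± 31.9 CPM in non-immunized DC and 362 to 445 on average in the immunized groups, called lower in all 4, beside the fall of T cell markers given above.

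Of the effectors and GEFs, Lrrk1, a kinase related to LRRK2, rose from 26.8 ± 2.41 to 161 ± 19.7 CPM with OVA at 24 h, a log2 change of 2.80 (SE 0.24, adjusted p = 1.07e-06), and by 2.45 and 1.80 with CpG at 12 h and 24 h. It was lower with OVA than with CpG at 12 h (log2 change -1.66, adjusted p = 0.00189). Migratory DC markers also moved where Tbc1d4, Tbc1d8 and Lrrk1 did. Of 6 tested, 6 rose with CpG at 12 h, 5 with CpG at 24 h and 5 with OVA at 24 h. All 6 were lower with OVA than with CpG at 12 h, and 5 rose from 12 h to 24 h of OVA. With OVA at 12 h against non-immunized DC 3 of these markers rose, while Tbc1d4, Tbc1d8 and Lrrk1 were not called. At 12 h, 3 of 7 conventional DC (cDC) markers and 5 of 10 neutrophil markers were also lower with OVA than with CpG. The part of these cells in the values of the 3 genes was not tested. Rin2, a GEF of Rab5, was high at 12 h in both immunizations, with 28.1 ± 14.4 CPM for CpG and 38.1 ± 3.72 for OVA against 8.16 ± 1.16 in non-immunized DC and 4.40 ± 3.03 and 4.33 ± 0.70 at 24 h. It had a log2 change of 2.02 (adjusted p = 0.00722) and 2.44 (adjusted p = 0.00149) at 12 h, and -2.93 and -3.12 from 12 h to 24 h (adjusted p = 0.00468 and 0.00158). Beside this course, 5 of 11 tested monocyte and macrophage markers rose at 12 h in both immunizations, and 10 with CpG and 11 with OVA fell from 12 h to 24 h. Their part in the Rin2 values was not tested. Dennd2d, another GEF, fell with CpG at 12 h from 137 ± 7.59 to 33.7 ± 16.0 CPM (log2 change -1.77, adjusted p = 0.000531) and rose again by 1.70 on the log2 scale from 12 h to 24 h (adjusted p = 0.00216). Of 18 tested T cell markers, 15 fell in the first of these comparisons and 7 rose in the second, and their part in the Dennd2d values was not tested.

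At 20 h 1 of 35 GEFs, 0 of 28 GAPs, 3 of 47 effectors and 0 of 7 carriers rose with OVA, and 3 effectors fell, where 15.6% of all genes were called. With BSA, where 5.45% were called, 1 GEF, 1 effector and 1 carrier rose and 1 effector fell. The carrier was Rabac1, which binds prenylated Rabs and rose from 326 ± 46.4 to 431 ± 45.8 CPM (log2 change 0.54, adjusted p = 0.0365). Trappc3, a subunit of the TRAPP complexes that activate Rab1, rose from 53.2 ± 5.82 to 92.9 ± 21.4 CPM with OVA (SD, n = 5 each), a log2 change of 0.96 (SE 0.21, adjusted p = 0.0028), and to 85.8 ± 24.5 with BSA (log2 change 0.83, adjusted p = 0.0209). Inpp5b, a phosphatase that binds Rab5, rose from 104 ± 27.7 to 229 ± 59.5 CPM with OVA (log2 change 1.26, SE 0.21, adjusted p = 0.000331). Ocrl, its paralog, fell from 15.1 ± 3.41 to 5.17 ± 2.73 CPM (log2 change -1.32, adjusted p = 0.0109), and the adaptor Bicd2 fell from 131 ± 33.5 to 68.7 ± 20.2 CPM (log2 change -0.76, adjusted p = 0.014). In the costimulation experiment 1 of 46 effectors tested was called, Plekhm2, where 2.6% of all genes were called with against without OT cells. Plekhm2 rose with OT cells from 33.2 ± 1.87 to 114 ± 9.50 CPM (SD, n = 2 each, log2 change 1.84, SE 0.32, adjusted p = 0.0162). In the same comparison all 8 NK markers and 8 of 15 tested T cell markers fell, and 2 of 7 migratory DC markers rose. Their part in the Plekhm2 values was not tested.

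In T cells 1 of 26 GEFs rose and 4 fell, 1 of 15 GAPs fell, and 1 of 31 effectors rose and 2 fell, where 15.9% of all genes were called. Rabac1 fell from 230 ± 19.9 normalized counts with BSA to 124 ± 44.4 with OVA (log2 change -0.94, adjusted p = 0.0271). Rilpl2, an effector of Rab8 and Rab10 at the centrosome, rose from 20.4 ± 7.64 to 101 ± 28.5 normalized counts, a log2 change of 2.26 (SE 0.31, adjusted p = 0.00277). In the same comparison Tbc1d10c fell from 228 ± 21.1 to 107 ± 18.6 normalized counts (log2 change -1.09, adjusted p = 0.00648). All of these T cell values are from 3 libraries per group.

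The remaining members gave no call with the tests used here. In none of the 16 comparisons did edgeR with TMM scaling, or limma in T cells, call 21 tested members: Rab2a, Rab2b, Rab6a, Rab18, Rab33b and Rab39 of the endoplasmic reticulum and Golgi, Rab5a of the early endosome, Rab4a, Rab4b, Rab12, Rab14 and Rab35 of recycling and exocytosis, Rab7 and Rab24 of late endosomes and autophagy, Rab3a, Rab26, Rab27a and Rab38 of granules and lysosome-related organelles, and Rab23, Rab28 and Rab40c. Of these 21, Rab5a, Rab4b and Rab2a were called under at least 1 alternative, Rab2a with DESeq2 for OVA at 20 h. The 13 members tested in none of the experiments were Rab3b, Rab3c, Rab9b, Rab15, Rab17, Rab20, Rab25, Rab27b, Rab33a, Rab34, Rab36, Rab39b and Rab40b. Summed over the 33 DC libraries they had from 0 counts (Rab9b) to 155 (Rab39b), and 6 had under 10. None of the 13 passed the filter on low counts, so a change in them was not assessed by the main tests. Reads that map to more than 1 paralog could shift counts between close members such as Rab5a, Rab5b and Rab5c, since how such reads were counted is not given in the sources used here.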

How the data were processed

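Bulk RNA of lymph node dendritic cells and OT-II T cells was sequenced. Per the submitters' processing notes, bcl2fastq, HISAT 0.1.6, HOMER and the mm9 build were used. How reads were assigned to genes, and whether duplicates were collapsed, is not given in the sources used here. The authors deposited raw counts per gene for the 3 dendritic cell experiments. For T cells the authors deposited normalized counts, a signal in which 100% of values were whole multiples of 1 read within 0.01. A fit of edgeR to these recovered reads called 1154 genes and 3 Rab genes. In all, 4 columns of 2 libraries with no matching label were not used.

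For dendritic cell counts edgeR 4.0.16 (R 4.3.3) gave a quasi-likelihood test, with TMM scaling, the filter of edgeR on low counts, all groups of an experiment in 1 fit and Benjamini-Hochberg adjustment over all genes tested. T cell values went to limma 3.58.1 as log2(normalized count + 1), keeping a gene if 3 libraries reached 10 normalized counts. A call is an adjusted p under 0.05. CPM are per library total, and the SE is that of the log2 change. DESeq2 1.42.0 was an alternative. The edgeR and limma steps were tested on simulated data. Figures were drawn with matplotlib 3.10.9, and tables were made with pandas 2.3.3 and numpy 2.4.6 under Python 3.11.15.

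The members and lists were chosen with earlier results of these data known. By the rule for naming, called members without overlap between groups were named (at most 8 each way), Rab5a, Rab5b, Rab5c, Rab7, Rab11a, Rab14, Rab27a, Rab32 and Rab43 were followed throughout, and at most 3 called regulators per list and comparison were named. Other members are accounted for by counts or named after their values were seen. Added after seeing the data were scaling by library totals and leaving out 2 libraries together. Promoter windows are those of RefSeq on GRCm38.p6, not the mm9 build of the counts, and no coordinate was converted. Some results on carriers in T cells are not reported here.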

Additional observations from a re-analysis of the deposited data

Results flagged for a closer look

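In the experiment with 5 replicates, 78 groups of 5 values (26 named members in 3 groups) were searched for a library far from the other 4, and 6 were found, where chance gives about 1 in 20. The OVA library of replicate 3, the deepest, was highest for Rab5c (457 CPM, the nearest 268), Rab7 (361 CPM, the nearest 206) and Rab1b (129.6 CPM, the nearest 93.5). The non-immunized library of replicate 3, the shallowest, was lowest for Rab22a (10.9 CPM, the nearest 36.1) and Rab11b (106 CPM, the nearest 159.8). OVA replicate 4 was highest for Rab1a (87.1 CPM, the nearest 73.1). The log2 change of Rab1b against non-immunized DC had opposite signs in the experiments: it was 0.60 with OVA at 20 h, which passed, and -0.15 with OVA at 24 h, which did not pass (adjusted p = 0.684), and this difference was not tested.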

How the results depend on the processing

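None of the member calls given in the report changed direction under the alternatives run. Rab44, not called between the 2 times of CpG, was called lower at 24 h without CpG 24 h replicate 1 and higher without CpG 24 h replicate 2. With DESeq2, 40 of 61 member calls in dendritic cells held and 21 did not pass, and the number called was 6 with CpG at 12 h, 3 with CpG at 24 h, 5 with OVA at 12 h, and 1 each between the 2 times of CpG and of OVA. Size factors of DESeq2 within edgeR changed none of the 61 calls. Scaling by library totals kept 42 of them and gave 5 calls with OVA at 12 h, 1 with BSA at 20 h and 1 (Rab9) for the difference between the immunizations over time. Without the filter on low counts 57 of 61 held, with 1 call for OVA against CpG at 12 h (Rab7b), 1 at 24 h (Rab32) and 2 for the difference over time (Rab9 and Rab32). A term for Y-linked transcripts kept 13 of 17 calls at 20 h and left 1 with BSA. The cause of these changes was not tested. Leaving out 1 library at a time gave 4 to 6 calls with CpG at 12 h, 0 to 4 with CpG at 24 h, 0 to 5 with OVA at 12 h and 6 to 9 with OVA at 24 h. The same gave 0 to 3 for OVA against CpG at 24 h, 0 to 5 between the times of CpG, 0 to 2 between those of OVA and 0 to 5 for the difference over time. It gave 8 to 13 with OVA at 20 h, 0 to 4 with BSA at 20 h and 0 to 3 in T cells, and 0 in the other 5 comparisons. Where a group was left with 1 library, that library was assumed to vary like the other groups. The replicate number as a block kept 56 of 63 calls, with 1 call (Rab9) for the difference over time, 1 (Rab10) with BSA at 20 h and 1 (Rab37) in T cells. Deviations of same-numbered samples from their group means had correlations of -0.045 to 0.148 in the time course and -0.059 to 0.176 in the costimulation experiment. They were -0.143 to 0.167 in the experiment with 5 replicates and -0.089 to 0.101 in T cells. These were not set against samples of unlike number, and in groups of 2 the deviations mirror each other. Whether the numbers pair the samples is therefore not decided. No paired analysis was possible for OVA against BSA with OT cells because those groups share only 1 replicate number. In T cells, edgeR on recovered reads and a pseudocount of 5 each called 3 members, and a pseudocount of 0.5 or no filter called 2.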
